A study of Mus musculus with 6 samples.

Results

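The genes described here encode the subunits of the proteasome, its dedicated activators and chaperones of its assembly. They were studied in mouse fetal liver erythroblasts cultured with or without added cholesterol. They were taken by symbol, as genes whose symbol begins with Psma, Psmb, Psmc, Psmd or Psme followed by a digit, pseudogenes left out, and 45 of the 17463 genes in the table met this rule. All 45 were among the 11277 genes that passed the filter on low counts. One of them, Psmc3ip, encodes a factor of meiotic recombination and no subunit, so the counts below are over the other 44.

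TER119-negative cells were purified from C57BL/6J fetal liver and cultured for 30 h with erythropoietin, the hormone on which maturing erythroid cells depend. Cholesterol at 40 µM was present throughout (3 samples) or not added (3 control samples), and cells that had gained TER119, a surface protein of maturing erythroid cells, were sorted for RNA-seq. The labels call the control samples untreated, whereas the study's text calls them vehicle-treated. Samples carry the numbers 1 to 3 in each group, and the labels do not say what a number stands for. The study says of the set of assays to which the RNA-seq belongs that values came from independent experiments, without saying whether each sequenced sample is one, so p-values measure the spread between these samples, which may be technical in part.

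The proteasome degrades proteins that carry ubiquitin chains. Its core particle is a barrel of stacked alpha and beta rings, with the proteolytic sites facing the inside of the beta rings, and its regulatory cap binds, unfolds and feeds in the substrate. In cells exposed to interferon, and in many leukocytes, the catalytic beta subunits are replaced by the immunoproteasome forms, which favour peptides for MHC class I. Erythroblasts use ubiquitin-dependent degradation while they discard most of their other proteins during terminal differentiation.

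Total counts lay between 19826849 and 20061724 per sample, and 3 counts, taken as the detection floor, were equal to 0.156 CPM, the count over the TMM-scaled library total. Of 12 erythroid markers, 11 were in the table, and their summed level was 155771 to 208726 CPM in control and 140330 to 186294 CPM in cholesterol samples. Of these 11, 10 were lower with cholesterol in all 3 pairs of same-numbered samples, as were 20.1% of all genes. Of the same 11, 4 (Alas2, Tfrc, Hba-a2 and Hbb-bs) were called lower in the edgeR fit with replicate number as a block, as were 5.2% of all genes, and 0 with condition alone. Hba-a2 and Hba-a1 are near copies, so the split of reads between them is uncertain. Markers of other cells were low beside these but not equal between samples. The summed level of 9 neutrophil markers was 70.4 to 674 CPM in control and 40.5 to 281 CPM in cholesterol samples, and that of 9 macrophage markers was 18.6 to 131 CPM and 13.9 to 61.7 CPM. Both sums were highest in replicate 3 of either group. Hepatocyte markers, of which Afp was the most abundant, summed to 91.6 to 261 CPM in control and 63.2 to 222 CPM in cholesterol samples, and megakaryocyte markers to 63.4 to 81.1 CPM and 60.4 to 68.5 CPM. Mast cell and basophil markers summed to 7.68 to 30.8 CPM and 2.86 to 5.52 CPM, and the 3 of 7 that passed the filter were all called lower with cholesterol in the blocked fit. Lymphocyte markers summed to at most 1.76 CPM, and Ms4a1, a B cell marker, was at 0 in every sample.

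As a set, the proteasome genes were an abundant part of the erythroblast transcriptome. The core and cap genes were close to each other in level, whereas levels of the other members ranged widely, as given below. The 44 genes took 0.741%, 0.707% and 0.654% of all counts in the controls numbered 1 to 3, against 0.746%, 0.723% and 0.653% in the same-numbered cholesterol samples. Same-numbered samples thus lay closer together than samples of one group. In bulk samples, fewer cells of a type and less RNA per cell cannot be told apart, and this holds for every level given here.

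Levels were compared between genes as FPKM, which divides by transcript length, and the values in this and the next paragraphs are means ± SD over all 6 samples. The 31 genes of the constitutive core and cap spanned a 3.50-fold range of levels, and 31 of 31 lay within 2-fold of their median of 124 FPKM. The alpha ring gates the entrance to the barrel. Its highest gene was Psma2 at 199 ± 14.5 FPKM and its lowest Psma5 at 90.6 ± 8.45 FPKM. Among beta subunits without a proteolytic site, Psmb3 stood at 221 ± 19.9 FPKM, Psmb1 at 220.1 ± 10.8 FPKM, Psmb4 at 180 ± 9.39 FPKM and Psmb2 at 169 ± 20.3 FPKM, all above the median of the 31. Counts of Psma3 and Psma4 were not whole in any sample, so their levels, near the median, are less certain.

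The 3 constitutive proteolytic subunits did not have equal levels. Psmb7, the trypsin-like subunit (beta2), was the highest of the 31 genes at 234 ± 21.9 FPKM. Psmb5, the chymotrypsin-like subunit (beta5), had 125 ± 10.6 FPKM, and Psmb6, the caspase-like subunit (beta1), had 115 ± 4.72 FPKM, so both lay near the median.

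In the cap, the 6 ATPases that unfold the substrate ranged from Psmc4 at 110.4 ± 7.23 FPKM to Psmc3 at 167 ± 14.7 FPKM. Psmd4, a ubiquitin receptor, had 124 ± 6.79 FPKM, and Psmd1 and Psmd2, the scaffold subunits of the base, had 114 ± 10.7 and 109 ± 8.37 FPKM. The lid held the lowest levels. Psmd6 was the lowest of the 31 genes in every sample (66.8 ± 6.06 FPKM), followed in every sample by Psmd12 (81.2 ± 8.59 FPKM) and then Psmd14, the lid's deubiquitinase (83.4 ± 8.56 FPKM). The highest gene of the lid was Psmd8 at 128 ± 6.41 FPKM.

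In this order, 5 of 30 gaps between neighbours exceeded the larger of the pair's SDs over the 6 samples. They were the gaps below Psmb1, Psmc3, Psmc2, Psmd11 and Psmd12. That SD includes differences between samples that the genes shared, so an order could hold in every sample although the gap was smaller. Psma2 had rank 4, Psmd14 rank 29 and Psmd12 rank 30 in every sample, although the gaps below Psma2 and Psmd14 were under the SD. The median coefficient of variation of a gene over the 6 samples was 8.46%, against 31.8% to 33.4% over the 31 genes within a sample. Psmd11, a lid subunit, was the steadiest of them at 103.7 ± 1.2 FPKM, although in 2 of its samples the estimated count was not a whole number.

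**Figure D1:**
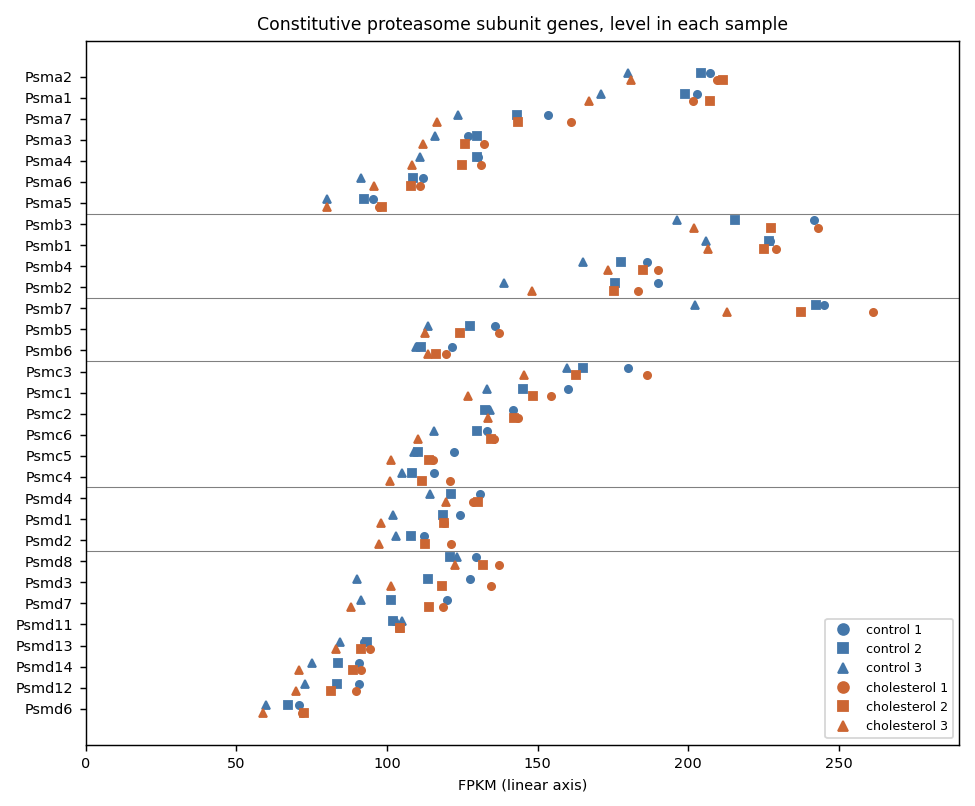
Level of the 31 constitutive core and cap genes in each sample, in FPKM on a linear axis, with genes ordered by mean level within the alpha ring, the other beta subunits, the catalytic beta subunits, the ATPases, the base and the lid. Blue and orange mark control and cholesterol samples and the shape marks the replicate number. For 28 of the 31 genes the triangle, replicate 3, is the lowest sample of both groups by FPKM. By TMM-scaled CPM this holds for 23 of the 31, beside 33.2% of all genes.

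The first comparison asked whether added cholesterol changed the expression of these genes. No core or cap gene passed the test in either direction, and none of their groups was separated. The fitted log2 fold changes, cholesterol over control, of the 31 genes ran from -0.078 (Psmc5) to 0.066 (Psmd3), with a median of -0.019, beside a median of 0.0064 over all genes tested. In edgeR's quasi-likelihood test with condition alone, 0 of the 44 members had an adjusted p under 0.05, and the smallest adjusted p among them was 1.0. Of all genes tested, 0.00887% were called higher and 0.0% lower in this fit. At an unadjusted p under 0.05 the members also gave 0 calls, beside 0.718% of all genes higher and 1.92% lower.

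Same-numbered samples deviated together, and the model with the replicate number as a block was more sensitive. It called 1.65% of all genes higher and 5.2% lower with cholesterol, and again 0 of the 44 members. The DESeq2 Wald test called 0.0266% of all genes higher and 0.248% lower, and 0 members, although it gave no adjusted p for Psmb9. In the blocked fit at an unadjusted p under 0.05, 3 members were higher (6.82% of the 44, beside 8.0% of all genes) and 2 were lower (4.55%, beside 11.6%). These were Psma8, Psmb10 and Psmd9 on the higher side and Psmb8 and Psmd5 on the lower side, and no core or cap gene was among them.

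How large a change of the core and cap could have gone unseen is given by the intervals. With condition alone, the 95% intervals of the 31 log2 fold changes lay within -0.33 and 0.42. With the block they lay within -0.18 and 0.16. Psmd3, a lid subunit, had the highest upper bound in both fits and Psma7 and Psmc5 the lowest bounds with condition alone and with the block.

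Class means of core and cap differed little within pairs. The mean log2 CPM of the 14 core genes was 7.37, 7.27 and 7.16 in the controls and 7.34, 7.28 and 7.14 in the cholesterol samples, each in the order of their numbers. The cholesterol sample was thus 0.036 lower, 0.013 higher and 0.024 lower than its control. These differences had a mean of -0.015 and an SD of 0.026 over pairs, beside an SD of 0.106 between control samples. For the 17 cap genes the values were 7.69, 7.54 and 7.51 in control and 7.65, 7.59 and 7.44 in cholesterol samples. This gave differences of -0.037, 0.050 and -0.069, with a mean of -0.019 and an SD of 0.061 over pairs. The SD between control samples was 0.093. The median log2 fold change with condition alone was -0.022 for the core and -0.012 for the cap, beside 0.0064 over all genes tested. By limma on log2(FPKM + 1) it was 0.013 and 0.017, beside a median difference of 0.027 over all genes tested. Both signs thus depended on the scaling, and both medians lay below that of all genes on either scale.

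The balance of signs depended on the scaling. On TMM-scaled counts, the log2 fold change of 18 of the 44 members was above 0 (40.9%, beside 52.1% of all genes) and 26 below it (59.1%, beside 47.9%). Of the 31 core and cap genes, 20 were below 0 (64.5%). By the group means of log2(FPKM + 1), 29 of the 44 members (65.9%) and 21 of the 31 core and cap genes (67.7%) were instead higher with cholesterol, beside 61.2% of all genes. In all 3 pairs, by TMM-scaled CPM, 6 members were higher with cholesterol (13.6%, beside 19.9% of all genes) and 8 were lower (18.2%, beside 20.1%). The groups did not overlap for 2 members that were higher, Psma8 and Psmb10 (4.55%, beside 3.72%), and for 1 that was lower, Psmd5 (2.27%, beside 4.28%). Among the 31 core and cap genes, 0 had groups that did not overlap.

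**Figure D2:**
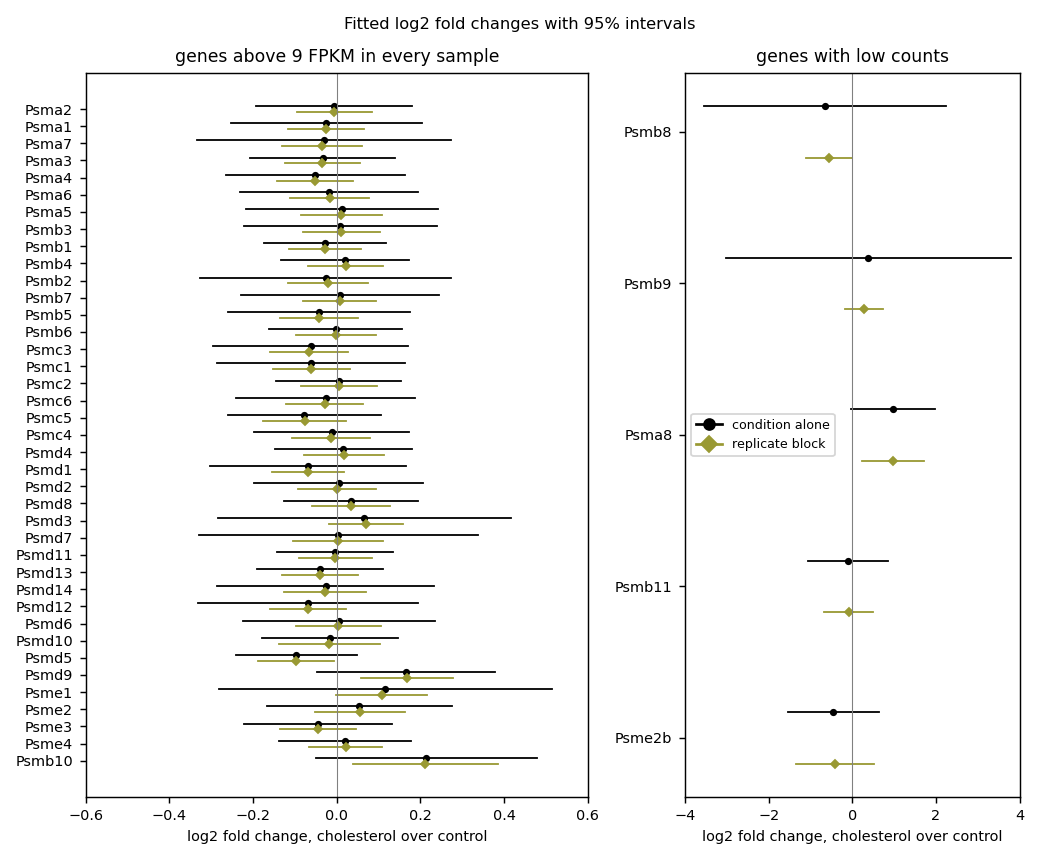
Fitted log2 fold change, cholesterol over control, of the 44 members with its 95% interval, with condition alone (black circles) or with a replicate block (olive diamonds); the left panel runs from -0.6 to 0.6 and the right panel, for genes with low counts, from -4 to 4. All intervals of core and cap genes include 0 in both fits, and the intervals of Psmb8 and Psmb9 with condition alone are the widest.

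Each immunoproteasome catalytic subunit takes the place of a constitutive one: Psmb9 (beta1i) that of Psmb6, Psmb10 (beta2i) that of Psmb7 and Psmb8 (beta5i) that of Psmb5. Psmb8 (chr17:34198195-34201454) and Psmb9 (chr17:34182030-34187330) lie on either side of Tap1 in the MHC region, with starts 10865 bases apart, whereas Psmb10 lies on chromosome 8 (chr8:105935728-105938392). Psmb9 and Tap1, a subunit of the peptide transporter that loads MHC class I, are transcribed away from each other with 225 bases between their starts, so the Tap1 start lies inside the Psmb9 promoter window.

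The promoters of Psmb6 and Psmb9 (beta1) and of Psmb5 and Psmb8 (beta5) are shown because the constitutive and the immunoproteasome gene of these pairs differed most in how their levels varied between samples. They come from RefSeq on GRCm38.p6, 250 bases before to 50 bases after the start, printed 5′ to 3′ on the gene's strand. Capitals mark matches, on either strand, to TGACNNNGC, the antioxidant response element bound by Nfe2l1 and Nfe2l2 with small Maf proteins, in the constitutive genes. The immunoproteasome genes were searched for the core of the interferon-stimulated response element (ISRE, searched as GAAA repeated after a gap of any 2 bases). The windows are chr11:70525107-70525406 (plus strand) for Psmb6, chr17:34187281-34187580 (minus strand) for Psmb9, chr14:54617946-54618245 (minus strand) for Psmb5 and chr17:34197945-34198244 (plus strand) for Psmb8.
Psmb6: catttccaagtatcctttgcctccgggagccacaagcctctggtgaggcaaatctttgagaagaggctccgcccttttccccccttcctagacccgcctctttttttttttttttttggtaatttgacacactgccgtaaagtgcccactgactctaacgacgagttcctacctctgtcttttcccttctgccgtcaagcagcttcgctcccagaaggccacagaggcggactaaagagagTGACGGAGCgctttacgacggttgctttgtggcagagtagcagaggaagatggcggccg
Psmb9: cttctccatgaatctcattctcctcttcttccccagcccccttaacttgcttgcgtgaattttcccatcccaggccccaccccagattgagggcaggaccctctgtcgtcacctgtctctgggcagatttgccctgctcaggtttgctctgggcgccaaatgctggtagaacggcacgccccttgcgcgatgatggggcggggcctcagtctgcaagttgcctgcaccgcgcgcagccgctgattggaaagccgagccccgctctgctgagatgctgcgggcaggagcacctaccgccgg
Psmb5: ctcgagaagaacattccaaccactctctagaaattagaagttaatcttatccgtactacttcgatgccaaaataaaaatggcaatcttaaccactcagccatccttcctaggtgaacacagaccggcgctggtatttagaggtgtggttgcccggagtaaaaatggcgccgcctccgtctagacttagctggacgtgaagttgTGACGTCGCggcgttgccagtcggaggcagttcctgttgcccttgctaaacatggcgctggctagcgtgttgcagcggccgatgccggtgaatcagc
Psmb8: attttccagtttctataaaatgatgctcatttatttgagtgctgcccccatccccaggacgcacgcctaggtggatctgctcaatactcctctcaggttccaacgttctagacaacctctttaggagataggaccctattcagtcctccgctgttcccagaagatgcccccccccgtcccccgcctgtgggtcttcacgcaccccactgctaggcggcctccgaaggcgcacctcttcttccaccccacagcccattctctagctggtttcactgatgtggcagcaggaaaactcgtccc

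The antioxidant response element began 47 bases before the start in Psmb5. In Psmb6 it began 9 bases before the start that the promoter table uses, which lies 33 bases inside the annotated gene, and so 24 bases after the first annotated base of the gene. The letters of the ISRE core were not in the Psmb8 or the Psmb9 window. Promoters were found for 38 of the 45 genes. The antioxidant element was in 2 of 11 core genes and in 2 of 14 cap genes, Psmc6 and Psmd12, beside 13.99% of all 27025 genes with a window of this length. The ISRE core was in 0 of the 3 immunoproteasome genes, beside 3.99% of all genes. The ISRE core was in Psmb3 (1 of 11 core genes), Psmd4 (1 of 14 cap genes), Psme1 (1 of 5 other activators) and Psmd9 (1 of 3 assembly chaperones), and the antioxidant element also in Psme4 and Psmd9. Each motif was counted on its own, whether or not it overlapped another. These matches describe letters only.

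Expression of the immunoproteasome genes was low against that of their constitutive partners, and 2 of the 3 varied widely between samples of one group. Psmb9 had 0.51, 1.4 and 9.93 FPKM in controls 1 to 3 and 0.73, 1.21 and 13.6 FPKM in the cholesterol samples. Psmb8 had 0.28, 1.44 and 6.33 FPKM in control and 0.49, 0.82 and 3.91 FPKM in cholesterol samples. Replicate 3 was the highest sample of each group for both genes, and the groups overlapped. Counts behind the lowest values were few, at 7 for Psmb8 and 10 for Psmb9 in control sample 1.

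The highest sample was 26.7-fold above the lowest for Psmb9 and 22.6-fold for Psmb8. For Psmb10 the ratio was 1.37, with 10.2, 9.76 and 10.6 FPKM in control and 11.7, 11.4 and 13.3 FPKM in cholesterol samples. Every cholesterol sample of Psmb10 lay above every control sample.

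The constitutive partners moved far less. Psmb6 had 122, 111 and 110 FPKM in control and 120, 116 and 114 FPKM in cholesterol samples. Psmb7 had 245, 243 and 202 FPKM in control and 261, 237 and 213 FPKM in cholesterol samples. Psmb5 had 136, 128 and 114 FPKM in control and 137, 124 and 113 FPKM in cholesterol samples. For all 3 genes the sample numbered 3 was the lowest of its group by FPKM, and the groups overlapped.

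As a share of the FPKM of both partners, Psmb9 made up 0.417%, 1.24% and 8.31% of the Psmb9 and Psmb6 sum in control and 0.607%, 1.03% and 10.7% in cholesterol samples. Psmb8 made up 0.206%, 1.12% and 5.28% of the Psmb8 and Psmb5 sum in control and 0.356%, 0.656% and 3.35% in cholesterol samples. Psmb10 made up 3.98%, 3.87% and 4.98% of the Psmb10 and Psmb7 sum in control and 4.28%, 4.57% and 5.89% in cholesterol samples. The constitutive transcript thus held most of the sum at each site in every sample, and Psmb10 had the largest immunoproteasome share in samples 1 and 2, Psmb9 in sample 3, of both groups.

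**Figure D3:**
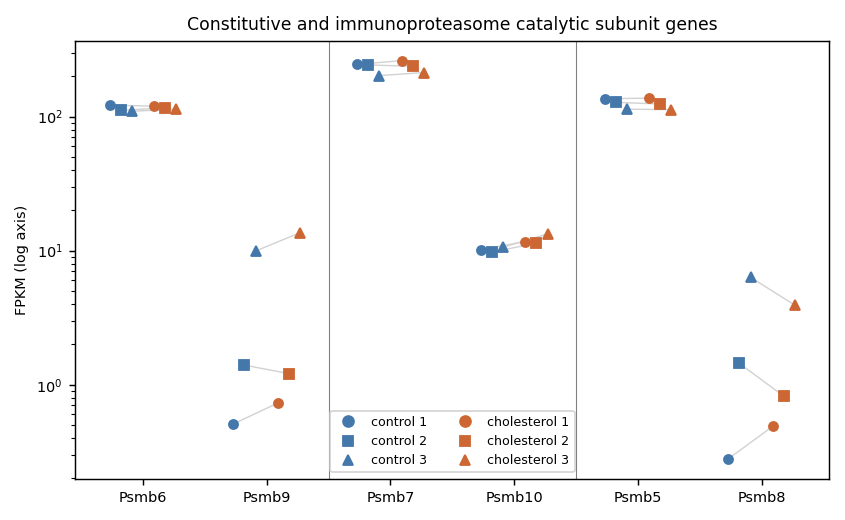
Level of the constitutive catalytic genes Psmb6, Psmb7 and Psmb5 and of the immunoproteasome gene that replaces each, in FPKM on a log axis, with same-numbered samples of the groups joined. Psmb8 and Psmb9 span more than 20-fold between samples while Psmb10 and the constitutive genes stay within 1.37-fold.

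With cholesterol, the 3 immunoproteasome genes did not move in one direction, and none passed an adjusted test over all 6 samples. In edgeR with condition alone, the log2 fold change of Psmb8 was -0.65 (SE 1.19, 95% interval -3.54 to 2.23), that of Psmb9 was 0.38 (SE 1.4, -3.02 to 3.78) and that of Psmb10 was 0.21 (SE 0.11, -0.050 to 0.48). With the replicate block the SEs of Psmb8 and Psmb9 fell to 0.26 and 0.22. The blocked log2 fold changes were -0.56 for Psmb8 (adjusted p = 0.237, edgeR), 0.28 for Psmb9 (adjusted p = 0.538) and 0.21 for Psmb10 (adjusted p = 0.145).

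Within pairs, the log2 ratio of Psmb10 to Psmb7 was higher in the cholesterol sample by 0.11, 0.25 and 0.25, with a mean of 0.20 and an SD of 0.083 over pairs. The ratio of Psmb9 to Psmb6 differed by 0.54, -0.27 and 0.40, and that of Psmb8 to Psmb5 by 0.79, -0.77 and -0.68, so neither kept its sign. Without both samples numbered 3, the blocked log2 fold change was -0.043 for Psmb9, -0.30 for Psmb8 and 0.16 for Psmb10. Without both samples numbered 1, that of Psmb8 was -0.75 and passed the threshold (edgeR adjusted p = 0.047), and without those numbered 2 it was -0.42 (edgeR adjusted p = 0.667).

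Within each group, Psmb8 and Psmb9 were highest in the sample with the highest summed neutrophil and macrophage markers. Between the samples numbered 3, both sums and Psmb8 were higher in control, whereas Psmb9 was higher in the cholesterol sample. The 9 neutrophil markers summed to 70.4, 253 and 674 CPM in control and 40.5, 110 and 281 CPM in cholesterol samples, and 9 of 9 were higher in replicate 3 than in the other replicates of both groups. The 9 macrophage markers summed to 18.6, 42.7 and 131 CPM in control and 13.9, 20.2 and 61.7 CPM in cholesterol samples, again with 9 of 9 highest in replicate 3, beside 32.6% of all genes. Of the 5 megakaryocyte and 4 hepatocyte markers, 1 of each list was highest in replicate 3 of both groups. The same held for 8 of 11 erythroid, 6 of 7 mast cell and basophil, and 3 of 4 lymphocyte markers. The summed levels of the erythroid, mast cell and basophil, hepatocyte and lymphocyte lists were also highest in replicate 3 of each group. In the blocked edgeR fit, 9 of the 9 neutrophil markers were called lower with cholesterol, and of the macrophage markers 5 were called lower and 1 higher, beside 5.2% lower and 1.65% higher of all genes. The part of these cells in the levels of Psmb8 and Psmb9 was not tested.

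**Figure D4:**
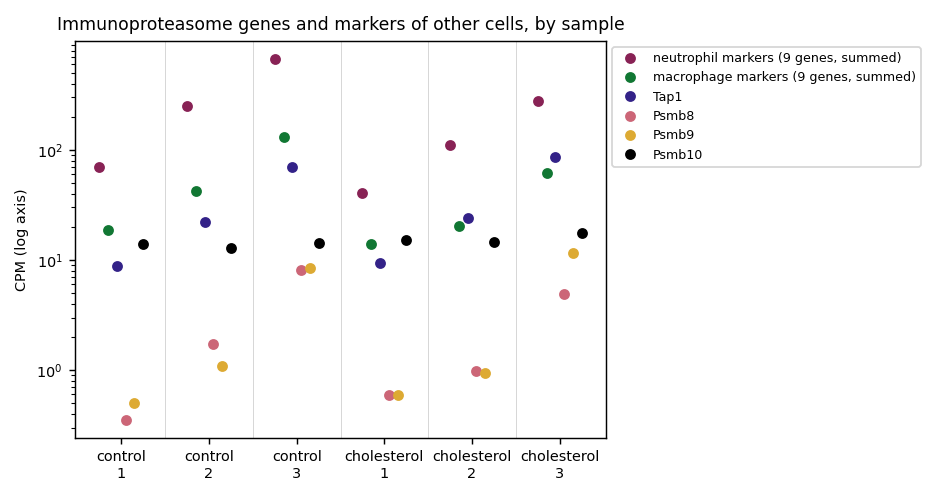
Expression in each sample of Psmb8, Psmb9, Psmb10 and Tap1 beside the summed level of 9 neutrophil and 9 macrophage markers, in CPM on a log axis. Sample 3 of each group is the highest for every series, and Psmb10 varies least.

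More members differed between replicate numbers than between conditions. In an F test of the replicate number in the blocked edgeR fit, a test chosen after the per-sample values were seen, 26 of the 44 members passed an adjusted p of 0.05 (59.1%, beside 46.3% of all genes). Among core genes 10 of 14 passed and among cap genes 11 of 17. Adjusted p-values were 2.28e-10 for Psmb9, 6.75e-08 for Psmb8, 1.18e-05 for Psmd3 and 3.33e-05 for Psme1 (edgeR, F test).

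Core genes were mostly lowest in replicate 3, whereas immunoproteasome genes were highest there. In TMM-scaled CPM, 13 of 14 core genes and 10 of 17 cap genes were lower in replicate 3 than in both other replicates of each group, as were 33.2% of all genes. The 3 immunoproteasome genes were higher in replicate 3 than in the other replicates of each group, as were 32.6% of all genes. The mean log2 CPM of the core in replicate 3 was 0.21 below that in replicate 1 in control and 0.20 below it in cholesterol samples, and that of the cap was 0.17 and 0.21 below it. For the immunoproteasome genes it was 2.67 and 2.37 above it. Psmb8 and Psmb9 made up most of that difference: Psmb10 had 13.9, 12.8 and 14.2 CPM in control and 15.3, 14.6 and 17.5 CPM in cholesterol samples and did not pass the F test (edgeR adjusted p = 0.213).

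The lid gene Psmd3 had the largest difference between samples of the 31 core and cap genes by the ratio of highest to lowest FPKM. It had 127, 114 and 90.0 FPKM in controls 1 to 3 and 135, 118 and 101 FPKM in the cholesterol samples. The cholesterol sample was the higher of each pair, by less than the spread within either group, and the blocked log2 fold change was 0.070 (SE 0.042, edgeR adjusted p = 0.394). Psmd11, also of the lid, was by CPM higher in replicate 3 than in the other replicates of each group, at 228 CPM in control and 223 CPM in cholesterol sample 3, and did not pass the F test (edgeR adjusted p = 0.413). Adult globin genes took 14.6%, 13.8% and 17.9% of all counts in control and 12.5%, 13.0% and 16.2% in cholesterol samples, so their share was highest where the core genes were lowest. The part of globin abundance in the difference was not tested.

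**Figure D5:**
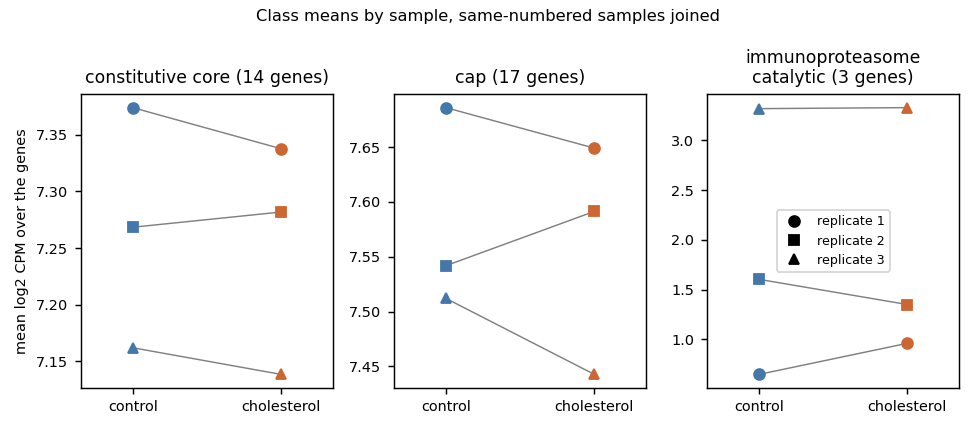
Mean log2 CPM of the 14 core genes, the 17 cap genes and the 3 immunoproteasome genes in each sample, with same-numbered samples joined and a separate axis range for each panel. Replicate 3 (triangles) is lowest for core and cap and highest for the immunoproteasome genes in both groups, and the lines between conditions are short against these differences for the core and immunoproteasome genes.

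Activators other than the cap differed widely in level, and none passed an adjusted test over all 6 samples. Psme3, which encodes the nuclear activator PA28 gamma, was the highest with 267, 249 and 248 FPKM in control and 249, 244 and 264 FPKM in cholesterol samples. Psme1, which encodes the alpha subunit of the interferon-inducible activator PA28, had 71.8, 79.8 and 89.6 FPKM in control and 72.5, 90.2 and 104 FPKM in cholesterol samples. Psme2, its beta subunit, had 58.9, 58.9 and 66.1 FPKM in control and 64.6, 62.7 and 68.6 FPKM in cholesterol samples. Sample 3 was again the highest of each group for Psme1 and Psme2, and the groups overlapped for all 3 genes.

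The blocked log2 fold change was 0.11 for Psme1 (SE 0.052, adjusted p = 0.265, edgeR) and -0.045 for Psme3 (SE 0.043, adjusted p = 0.638). Psme4, which encodes the activator PA200, had between 32.8 and 38.6 FPKM in all samples. Psme2b, a near copy of Psme2, had 1.07 to 2.95 FPKM. Estimated counts of both Psme2 and Psme2b were not whole in all 6 samples, which shows that reads were shared with other genes, so the values of this pair are uncertain. Psme2b was called lower in the blocked fit without both samples numbered 1 (-1.07, edgeR adjusted p = 0.0246), whereas its log2 fold change was 0.018 without those numbered 3.

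The 3 chaperones that help to assemble the base of the cap did not move in one direction. Psmd5 had 93.6, 95.2 and 88.7 FPKM in control and 91.0, 91.4 and 81.7 FPKM in cholesterol samples. By FPKM its groups overlapped, whereas by TMM-scaled CPM every cholesterol sample lay below every control sample. Its blocked log2 fold change was -0.098 (SE 0.043, edgeR adjusted p = 0.21). Psmd9 had 19.2, 19.96 and 22.1 FPKM in control and 23.0, 23.2 and 24.0 FPKM in cholesterol samples, with each cholesterol sample above each control sample by FPKM, and groups that overlapped by CPM.

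Psmd9 came nearest to the threshold of all members in the blocked fit, with a log2 fold change of 0.17 (SE 0.052, edgeR adjusted p = 0.063). It passed when both samples numbered 3 were left out (0.21, edgeR adjusted p = 0.0168) but not without those numbered 1 or 2 (0.15 each, edgeR adjusted p = 0.263 and 0.305), and its counts were not whole in any sample. Psmd10 had 27.3 to 30.9 FPKM, with a blocked log2 fold change of -0.017 (SE 0.058, edgeR adjusted p = 0.916).

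Subunits known from particular tissues had few counts. Psma8, the alpha subunit of the testis, had 16, 13 and 7 counts in control and 33, 20 and 19 counts in cholesterol samples, or 0.22 to 0.99 FPKM. Every cholesterol sample lay above every control sample, and the blocked log2 fold change of 0.98 (SE 0.35) had an edgeR adjusted p of 0.113. Psmb11, the catalytic subunit of the thymic cortex, had 0.25 to 0.60 FPKM, with groups that overlapped and counts that were not whole. It lies 7314 bases from Psmb5 on chromosome 14, where Psmb5 had more than 100 FPKM in every sample.

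Psmc3ip, which the symbol rule takes in although its product is no subunit, had 19.5, 20.1 and 16.1 FPKM in control and 22.1, 21.8 and 17.1 FPKM in cholesterol samples. The cholesterol sample was the higher of each pair, the groups overlapped, and the blocked log2 fold change was 0.11 (SE 0.074, edgeR adjusted p = 0.471).

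Other genes of the pathway were read from lists of 48 genes. With condition alone 0 of the 48 passed the adjusted edgeR test, and with the block 2 were called higher (4.17%) and 1 lower (2.08%), beside 1.65% and 5.2% of all genes. The 2 that rose in the blocked fit were Ddi2 and B2m, and the 1 that fell was Maf.

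Ddi2 encodes the protease that cleaves Nfe2l1, the factor that drives transcription of proteasome subunit genes when the proteasome is impaired. It had 11.96, 12.1 and 11.1 FPKM in control and 14.7, 14.4 and 13.8 FPKM in cholesterol samples, so the groups did not overlap. Its log2 fold change was 0.26 in both fits, with an SE of 0.060 with condition alone (edgeR adjusted p = 1.0, unadjusted p = 0.00442) and of 0.053 with the block (edgeR adjusted p = 0.00518). The blocked call held without each pair of same-numbered samples in turn (0.24 to 0.27), but the counts of Ddi2 were not whole in any sample. Nfe2l1 itself had 12.5, 13.6 and 15.6 FPKM in control and 13.6, 12.01 and 16.3 FPKM in cholesterol samples, with groups that overlapped and a blocked log2 fold change of -0.012 (SE 0.055). Nfe2l2, its relative that responds to oxidative stress, had a blocked log2 fold change of -0.057 (SE 0.046, edgeR adjusted p = 0.552).

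Maf, a large Maf transcription factor, was at a low level, highest in replicate 3 of each group, with 0.32, 0.99 and 3.43 FPKM in control and 0.30, 0.39 and 1.25 FPKM in cholesterol samples. Its blocked log2 fold change was -1.19 (SE 0.22, edgeR adjusted p = 0.00281), whereas with condition alone it was -1.31 (SE 0.95, edgeR adjusted p = 1.0). It lost the blocked call without the pair numbered 2 (-1.11, edgeR adjusted p = 0.067) and without that numbered 3 (-0.86, edgeR adjusted p = 0.116), and its counts were not whole in any sample. The macrophage markers, whose summed level is given above, had the same order of samples in each group, and their part in the levels of Maf was not tested.

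Of the 6 genes for assembly of the core and its inhibitor, none passed in either fit. Pomp, a chaperone needed to complete the core particle, had 140, 129 and 113 FPKM in control and 144, 140 and 108 FPKM in cholesterol samples, again lowest in replicate 3. Its blocked log2 fold change was 0.0015 (SE 0.050, edgeR adjusted p = 0.992). Of the 7 other cap subunits and cap-bound enzymes none passed, with log2 fold changes from -0.086 to 0.056. Ubb, a ubiquitin gene, was far more abundant. It had 1237 to 1525 FPKM, with a blocked log2 fold change of -0.062 (SE 0.039, edgeR adjusted p = 0.424).

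Genes of MHC class I loading and the interferon response were, like Psmb8 and Psmb9, highest in replicate 3. All 11 were higher in replicate 3 than in the other replicates of each group, as were 32.6% of all genes, and 10 of 11 passed the F test of the replicate number, as did 46.3% of all genes. With cholesterol, 3 of the 11 were higher and 1, Irf8, was lower in all 3 pairs, beside 19.9% and 20.1% of all genes, and B2m alone passed the adjusted edgeR test with the block. Tap1, the neighbour of Psmb9, had 2.87, 7.46 and 22.6 FPKM in control and 3.20, 8.10 and 28.3 FPKM in cholesterol samples. B2m, the light chain of MHC class I, had 378, 541 and 1197 FPKM in control and 418, 635 and 1491 FPKM in cholesterol samples. The cholesterol sample was the higher of each pair for both genes, and the groups overlapped.

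With the block, the log2 fold change was 0.20 for B2m (SE 0.043, edgeR adjusted p = 0.00661) and 0.20 for Tap1 (SE 0.066, edgeR adjusted p = 0.0802). With condition alone it was 0.24 for each, with SEs of 0.61 and 0.98 and edgeR adjusted p-values of 1.0. Without both samples numbered 3, that of B2m was 0.16 with the block (edgeR adjusted p = 0.011), and without those numbered 2 it was 0.19 and no longer passed (edgeR adjusted p = 0.0801). The counts of Tap1 were not whole in any sample.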

How the data were processed

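The authors deposited expected counts per gene, estimated counts that need not be whole (27.9% to 29.5% of values per sample were not), and a second table of normalized values. The authors deposited the latter without naming a unit, and they were read as FPKM. Each count, its sample's total and its normalized value imply a similar, though not identical, length for a gene in each sample. The submitters' processing notes name HISAT2 2.0.4, Bowtie2 2.2.5, RSEM 1.2.12 and DESeq2 1.4.5 and the build GRCm38.p6, with no strand-specific step, so reads of overlapping antisense genes cannot be told apart.

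Expected counts were rounded, although tests had been planned for whole counts, and tested with edgeR 4.0.16 in R 4.3.3 (filterByExpr with at least 10 counts, 15 in total; TMM; robust quasi-likelihood test with condition alone; Benjamini-Hochberg adjustment over 11277 genes). SEs came from the F statistic. Deviations from group means correlated between same-numbered samples (0.729, 0.348 and 0.825 for numbers 1 to 3; other pairs -0.795 to 0.346), so a fit with the replicate number as a block is given too. No pair of libraries was a copy (chi-square per degree of freedom at least 8.65). Alternatives were DESeq2 1.42.0, limma 3.58.1 on log2(FPKM + 1), other filters and scalings, and samples left out. The methods were tested on simulated data.

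The members, gene lists and marker lists were chosen with earlier results of these data known. Named are the catalytic subunits, Psme1 to Psme4, the highest, lowest and 2 smallest p in each class, every member past an adjusted p of 0.05, matched genes that are no subunits, and of the pathway Pomp, Nfe2l1, Nfe2l2, Ubb, Tap1, B2m and genes past that threshold. Another gene of this rule is not reported here. Psma7, Psmc2, Psmc6, Psmd3, Psmd10, Psmd11, Psmd14 and Irf8 lie outside this rule and were named after their values were seen.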

Additional observations from a re-analysis of the deposited data

How the results depend on the processing

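Over 15 alternatives, 658 log2 fold changes of 44 genes were recomputed. The count of proteasome members called stayed at 0 in both directions under the replicate block, DESeq2, limma on log2(FPKM + 1), either other filter and each sample left out, with these exceptions in blocked fits that left out a pair. With both samples numbered 1 left out, 2 members were called lower, Psmb8 (-0.75, edgeR adjusted p = 0.047) and Psme2b (-1.07, edgeR adjusted p = 0.0246), and with both numbered 3 left out 1 was called higher, Psmd9 (0.21). The replicate block changed the calls of Ddi2, B2m and Maf, as given above, and of no other member or pathway gene.

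Over all genes, 186 were called higher and 586 lower with the replicate block, 3 and 28 by the DESeq2 Wald test, and 118 and 703, 67 and 229, and 210 and 516 in blocked fits without both samples numbered 1, 2 and 3. Pathway genes called were 2 higher and 1 lower with the block, 3 and 2 without the pair numbered 1, 1 higher without that numbered 2, and 2 and 2 without that numbered 3. The median log2 fold change of the core became 0.013 by limma, and the mean of its differences within pairs became 0.015 by total-count CPM and 0.015 on log2(FPKM + 1). The cause of these differences was not tested.

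Signs of fold changes near 0 were unstable. They reversed for Psmb6 (0.0017) with no filter, for Psmd2 (-0.00065) with at least 10 counts in every sample, and by limma for Psma2 (0.024), Psmb1 (0.0024), Psmb2 (0.011), Psmb6 (0.029), Psmc4 (0.017) and Nfe2l1 (0.00027). Without the pair numbered 1 they reversed for Psma2 (0.012), Psmb2 (0.025), Psmb6 (0.040), Psmb7 (-0.0059), Psmd2 (-0.025) and Psme3 (0.011). Without the pair numbered 2 they reversed for Psma5 (-0.029), Psmb11 (0.26), Psmb3 (-0.020), Psmd2 (-0.027), Psmd4 (-0.023), Psmd6 (-0.044), Psmd8 (-0.0076), Nfe2l1 (0.057) and Pomp (-0.057). Without the pair numbered 3 they reversed for Psma2 (0.0022), Psmb9 (-0.043), Psmc4 (0.023), Psme2b (0.018) and Psme4 (-0.00023).

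With each sample left out in turn, the median log2 fold change ran from -0.050 to 0.033 over all members, from -0.059 to 0.046 over the core and from -2.08 to 1.03 over the immunoproteasome genes, and 0 to 7 of all genes were called lower, 7 without control sample 3. The sign reversed for 33 named genes. Members of the alpha ring ranged as follows: Psma2 -0.050 to 0.051, Psma3 -0.076 to 0.022, Psma4 -0.11 to 0.014 and Psma5 -0.043 to 0.091. Beta subunits ranged likewise: Psmb1 -0.055 to 0.0025, Psmb2 -0.13 to 0.078, Psmb3 -0.044 to 0.097, Psmb4 -0.0074 to 0.068, Psmb5 -0.11 to 0.024, Psmb6 -0.040 to 0.051, Psmb7 -0.063 to 0.078, Psmb8 -2.08 to 1.03, Psmb9 -2.11 to 2.43 and Psmb11 -0.37 to 0.19. In the cap the ranges were Psmc1 -0.11 to 0.016, Psmc3 -0.15 to 0.0076, Psmc4 -0.067 to 0.040, Psmd1 -0.13 to 0.0066, Psmd2 -0.058 to 0.075, Psmd4 -0.013 to 0.075, Psmd6 -0.043 to 0.084, Psmd8 -0.0055 to 0.070 and Psmd12 -0.15 to 0.013. Activators and pathway genes ranged from -0.030 to 0.25 for Psme1, -0.00023 to 0.13 for Psme2, -0.014 to 0.062 for Psme4, -0.48 to 0.89 for B2m, -2.25 to 0.0024 for Maf, -0.15 to 0.098 for Nfe2l1, -0.18 to 0.084 for Nfe2l2, -0.063 to 0.12 for Pomp, -1.01 to 1.37 for Tap1 and -0.17 to 0.045 for Ubb. Low counts limit Psma8, Psmb8, Psmb9, Psmb11 and Psme2b.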
